A study of Mus musculus with 12 samples.

Results

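The comparison described here set co-housed Tcra-/- mice against wild type mice, over all genes of the terminal ileum, the last stretch of the small intestine. It held 3 Tcra-/- mice, made unable to form the alpha chain of the T cell receptor, that had shared a cage with an equal number of age-matched wild type males for 4 to 8 weeks, and 3 wild type C57BL/6 mice. These are 6 of the 12 libraries of the study, 1 library per mouse. The members were chosen by the group name on the label, without any measured value. The other 6 libraries came from 3 Tcra-/- mice housed separately and 3 mice labelled Rag1-/-, and they appear below only to show where the co-housed mice differed. All strains were obtained from Taconic through a NIAID contract and were kept under specific-pathogen-free conditions. The labels do not say whether the 3 sequenced wild type mice were the cage mates of the co-housed mice, and they give no age, cage or preparation date. The sex is given only for the cage mates. The strain on which the Tcra allele was kept is not given beyond the genotype, so genotype, housing and cage cannot be told apart in this comparison.

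Alpha beta T cells recognise antigen with a receptor made of an alpha and a beta chain, so mice without the alpha chain make no conventional T cells but keep B cells, gamma delta T cells and innate lymphoid cells. In the ileum, innate lymphoid cells and T cells make interleukin 22 (IL-22), which acts through STAT3 on epithelial cells and raises antimicrobial lectins and the fucosylation of the epithelial surface. Helper T cells also drive germinal centres, where B cells switch to IgA, the antibody that the polymeric immunoglobulin receptor carries into the lumen. The absorbing epithelium digests sugars and peptides at its brush border and takes up fat, bile acids and nutrients.

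RNA of the whole tissue was sequenced after preparation with an Illumina stranded mRNA kit, per the labels' protocols. Each co-housed Tcra-/- mouse gave 37061276 to 43496528 counts and each wild type mouse 42067145 to 42312100, and no library of the 12 exceeded 50581616. Of 23284 genes in the deposited table, 15866 had enough reads to be tested. Levels are given in CPM, counts scaled to library size with TMM factors, for mice TCRaCox3155, TCRaCox3156 and TCRaCox3157 of the co-housed Tcra-/- group and then mice WTB6x3159, WTB6x3160 and WTB6x3167 of the wild type group. Fold changes are log2 values of co-housed Tcra-/- over wild type with their standard error (SE), from edgeR's quasi-likelihood test on all 12 libraries, and a gene was called at an adjusted p (Benjamini-Hochberg over all genes tested) under 0.01. Means are given ± SD over the 3 mice of a group. The reads are from whole tissue, so fewer cells of a type and less RNA per cell cannot be told apart in anything that follows. The targeted gene itself is not analysed here. Rag1 had 75, 69 and 92 reads in the 3 mice labelled Rag1-/- and 0 reads in each of the other 9 mice. The gene thus goes against that label, and the counts do not say which part of it the reads came from. The B cell markers of the same 3 mice summed to 47.9 to 54.5 CPM, below every other mouse, so these libraries are called by their label and every comparison with them carries this limit. None of 5 sex-linked transcripts was called, and none of 13 smooth muscle, 13 endothelial or 11 mast cell and eosinophil markers was called.

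In the co-housed Tcra-/- ileum, 2940 genes were called against wild type, which is 18.5% of those tested. Of these, 1482 were higher (9.34%) and 1458 lower (9.19%), and 302 of the higher genes (1.9%) and 392 of the lower genes (2.47%) differed more than 2-fold. The values of the 3 and 3 mice did not overlap in 6615 genes (41.7%), and 2937 genes were both called and free of overlap. When counts were scaled by library size alone, the median gene stood at -0.12 on the log2 scale and 795 genes were higher and 2449 lower, so that 24.5% of calls were higher in place of 50.4%. The fold changes given here are relative to the TMM scaling, under which the median of all genes was 0.0014. Secreted proteins such as Lrg1 and enzymes that build surface sugars such as B3galt5 were among the largest rises, and enzymes and transporters of the absorbing epithelium such as Lct and Slc2a2 were among the largest falls. The plot of fold change against level shows both. Of the genes whose 6 single values are given below, the co-housed and wild type mice overlapped in Ms4a1, Lyz1, H2-Ab1 and Fasn, and in none of the others.

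**Figure D1:**
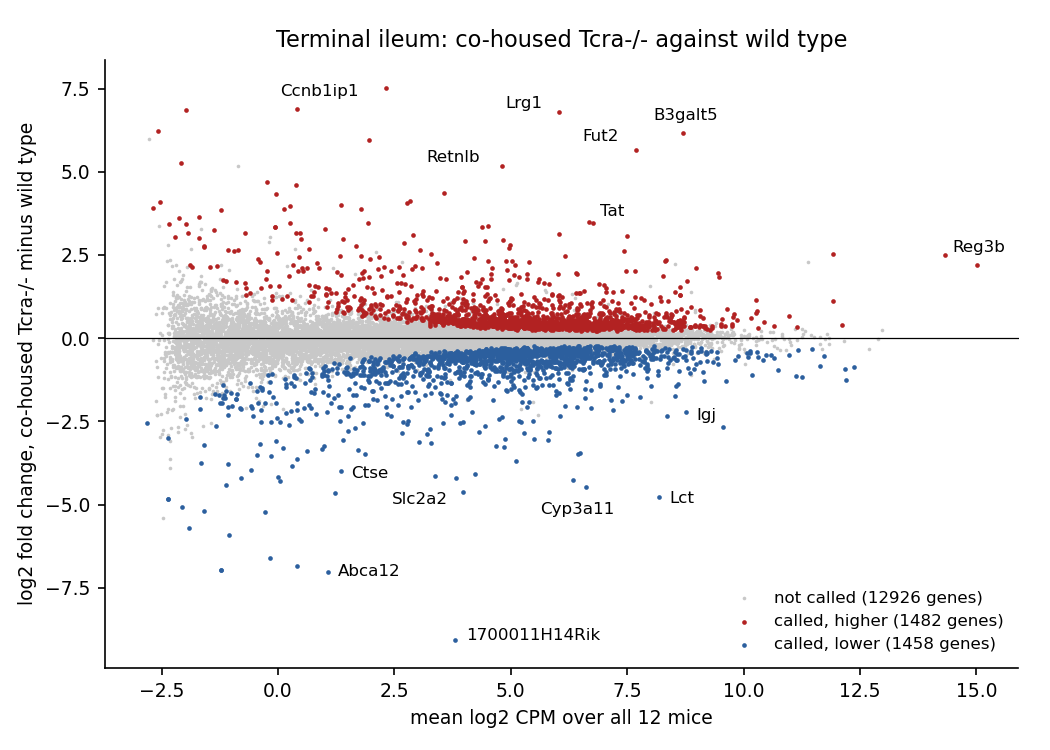
Each point is 1 of 15866 genes, with its mean level over the libraries (log2 CPM) on the horizontal axis and its log2 fold change, co-housed Tcra-/- over wild type, on the vertical axis. The 1482 genes above 0 that were called, the 1458 below 0 and the 12926 not called are coloured apart, and called genes lie on both sides of 0 at all levels.

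Lrg1, which encodes a secreted leucine-rich glycoprotein of the acute phase, measured 68.1, 60.5 and 198 CPM in co-housed Tcra-/- mice, against 0.585, 0.974 and 1.39 CPM in wild type mice. All 3 co-housed mice were far above all 3 wild type mice, and mouse TCRaCox3157 was the highest (log2 fold change 6.79 ± 0.68 (SE), adjusted p = 1.4e-04; 6.03 without mouse TCRaCox3157). Cfhr2, a secreted protein of plasma, measured 4.28, 6.24 and 7.63 CPM in co-housed Tcra-/- mice, against 0, 0 and 0.0894 CPM in wild type mice. Only mouse WTB6x3167 of the wild type group had any Cfhr2 reads (log2 fold change 7.53 ± 0.60 (SE), adjusted p = 1.8e-06), and without that mouse the fitted value, against 0 reads, was 11.02. Other large rises were in Ppef1 (log2 fold change 5.97 ± 0.66 (SE), adjusted p = 5.1e-05; 5.15 without mouse TCRaCox3157), in Serpina10, a serine protease inhibitor of plasma (log2 fold change 4.13 ± 0.21 (SE), adjusted p = 3.3e-09), in Cpn2, a subunit of carboxypeptidase N (log2 fold change 4.00 ± 0.30 (SE), adjusted p = 1.6e-07), and in Mal, a membrane trafficking protein of polarised epithelium (log2 fold change 3.37 ± 0.16 (SE), adjusted p = 3.3e-09). Tat, the tyrosine aminotransferase of amino acid breakdown, measured 146, 142 and 182 CPM in co-housed Tcra-/- mice, against 10.3, 15 and 16.3 CPM in wild type mice, with no overlap. Tat had a log2 fold change of 3.498 ± 0.41 (SE, adjusted p = 3.1e-04). Gml, Hemt1 and Trim10 rose by 4.35, 4.07 and 3.89 on the log2 scale.

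Lct, the lactase of the brush border, measured 28.1, 9.76 and 5.47 CPM in co-housed Tcra-/- mice, against 456, 413 and 299.6 CPM in wild type mice. Each co-housed mouse was more than 10-fold below each wild type mouse, and mouse TCRaCox3155 was the highest of the co-housed group (log2 fold change -4.77 ± 0.62 (SE), adjusted p = 5.9e-04; -5.67 without mouse TCRaCox3155). Slc2a2, which encodes the glucose transporter GLUT2, measured 2.43, 0.412 and 0.743 CPM in co-housed Tcra-/- mice, against 33, 26 and 24.8 CPM in wild type mice. Slc2a2 had a log2 fold change of -4.61 ± 0.43 (SE, adjusted p = 4.4e-05), and -5.60 without mouse TCRaCox3155. Cyp3a11, a drug-metabolising cytochrome P450, measured 20.7, 4.62 and 5.37 CPM in co-housed Tcra-/- mice, against 269, 253 and 142 CPM in wild type mice. Cyp3a11 had a log2 fold change of -4.46 ± 0.66 (SE, adjusted p = 0.0013), and -5.47 without mouse TCRaCox3155. In a fit of the 6 libraries alone, the adjusted p was 0.0131 for Lct and 0.0187 for Cyp3a11, so both calls were lost there. Ctse, an aspartic protease, measured 0.514, 0.457 and 0.668 CPM in co-housed Tcra-/- mice, against 9.31, 7.66 and 9.32 CPM in wild type mice, and the groups did not come near each other. Ctse had a log2 fold change of -3.997 ± 0.25 (SE, adjusted p = 2.4e-08). Slc5a4a of the sodium-glucose cotransporter family fell by 4.15, Hao2, a peroxisomal hydroxyacid oxidase, by 3.49 and Slc5a12, a lactate and monocarboxylate transporter, by 3.44 on the log2 scale. Acot12, an acetyl-CoA thioesterase whose exons share bases with another listed gene, fell by 4.19. Without mouse TCRaCox3155 the Acot12 value was -4.84.

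T cell genes were lower in part in the co-housed Tcra-/- mice, and their reads were not absent. Of 34 T cell markers, all tested, 12 were called lower and 0 higher, and the median log2 fold change was -0.94. Their summed level was 84.9 to 153 CPM in co-housed Tcra-/- mice, against 179 to 238 CPM in wild type mice. It was 55.4 to 59.9 CPM in separately housed Tcra-/- mice and 45 to 52.4 CPM in mice labelled Rag1-/-. Cd5, a surface receptor of T cells that dampens receptor signals, measured 0.228, 0.412 and 0.248 CPM in co-housed Tcra-/- mice, against 3.13, 4.92 and 4.83 CPM in wild type mice. This was the largest fall of the list, with no overlap (log2 fold change -3.83 ± 0.34 (SE), adjusted p = 7.3e-07). Cd6, its close relative, measured 1.14, 2.06 and 0.99 CPM in co-housed Tcra-/- mice, against 5.4, 9.0 and 9.55 CPM in wild type mice. Cd6 had a log2 fold change of -2.50 ± 0.28 (SE, adjusted p = 9.3e-06). Cd8a, the CD8 chain that gamma delta cells and innate-like intraepithelial cells also carry, measured 9.03, 12.1 and 7.53 CPM in co-housed Tcra-/- mice, against 21, 36.3 and 32.2 CPM in wild type mice. Cd8a had a log2 fold change of -1.64 ± 0.21 (SE, adjusted p = 5.5e-05). Cd8b1, the chain that pairs with it on conventional CD8 T cells, measured 0.428, 1.1 and 0.396 CPM in co-housed Tcra-/- mice, against 2.38, 2.45 and 4.45 CPM in wild type mice. Cd8b1 had a log2 fold change of -2.24 ± 0.40 (SE, adjusted p = 5.5e-04), and -2.90 without mouse TCRaCox3156. Cd27, a costimulatory receptor, had a log2 fold change of -1.56 (SE 0.31). Cd3e, a signalling chain shared by alpha beta and gamma delta receptors, measured 3.63, 6.15 and 2.53 CPM in co-housed Tcra-/- mice, against 6.84, 12.7 and 9.95 CPM in wild type mice. Cd3e had a log2 fold change of -1.25 ± 0.32 (SE, adjusted p = 0.0092). Its call was lost with no filter on low counts (adjusted p 0.0124), in the fit of 6 libraries (0.0297) and without co-housed mouse TCRaCox3155 (0.0382) or TCRaCox3157 (0.0271) or wild type mouse WTB6x3160 (0.044) or WTB6x3167 (0.0238). Cd3g and Cd3d, the other CD3 chains, were not called, at -0.95 (adjusted p = 0.029) and -0.61 (adjusted p = 0.15). The number of T cell genes called lower was 6 without co-housed mouse TCRaCox3155, without co-housed mouse TCRaCox3157 or without wild type mouse WTB6x3160, and 7 without wild type mouse WTB6x3167. Of 28 tested genes of cytotoxic and intraepithelial lymphocytes, 3 were called lower, near the share of all genes, and 1 higher, with a median of -0.63. The number lower was 0 in the fit of 6 libraries and without co-housed mouse TCRaCox3155 or TCRaCox3157 or wild type mouse WTB6x3160 or WTB6x3167, 9 without co-housed mouse TCRaCox3156, 5 without wild type mouse WTB6x3159 and 8 with DESeq2's Wald test, and the number higher was 0 in the fit of 6 libraries and without mouse TCRaCox3156, WTB6x3159 or WTB6x3167. Gzmb, the granzyme of killer cells, measured 10.3, 23.3 and 4.26 CPM in co-housed Tcra-/- mice, against 32.1, 45.4 and 53.3 CPM in wild type mice. Its groups did not overlap, but it missed the threshold (log2 fold change -1.78 ± 0.52 (SE), adjusted p = 0.033). Gzmb was called without co-housed mouse TCRaCox3156, at -2.59 (adjusted p = 0.00278), and with DESeq2's Wald test (adjusted p = 0.00605).

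Some genes used as gamma delta T cell markers were higher. Of 14 listed, 9 were in the deposited table and 8 were tested, and 3 were called higher and 1 lower. Their summed level was not higher, at 257 to 317 CPM in co-housed Tcra-/- mice, against 301 to 335 CPM in wild type mice. The lower gene was Maf, whose call was lost without mouse TCRaCox3156, TCRaCox3157, WTB6x3160 or WTB6x3167. Cd163l1, a scavenger receptor described in mouse on interleukin 17-making gamma delta T cells, measured 1.97, 3.0 and 6.04 CPM in co-housed Tcra-/- mice, against 0.045, 0.453 and 0.492 CPM in wild type mice. All 3 co-housed mice lay above all 3 wild type mice, with mouse TCRaCox3157 at the top (log2 fold change 3.47 ± 0.54 (SE), adjusted p = 3.2e-04). It was also higher than in mice labelled Rag1-/-, at a mean of 0.265 CPM (log2 fold change 3.77, adjusted p = 7.9e-04, edgeR), and than in separately housed Tcra-/- mice, at 0.424 CPM (3.11, adjusted p = 2.2e-04, edgeR). 5830411N06Rik, the neighbouring scavenger receptor of the same family, measured 0.657, 0.754 and 1.09 CPM in co-housed Tcra-/- mice, against 0.135, 0.181 and 0.246 CPM in wild type mice. 5830411N06Rik had a log2 fold change of 2.14 ± 0.42 (SE, adjusted p = 0.0012). Sox13, a transcription factor of the gamma delta lineage that other tissue cells also express, measured 100.1, 87.6 and 105 CPM in co-housed Tcra-/- mice, against 39.8, 40.5 and 34.1 CPM in wild type mice. Sox13 had a log2 fold change of 1.36 ± 0.09 (SE, adjusted p = 3.6e-08). Its mean was 105 CPM in separately housed Tcra-/- mice and 98.3 CPM in mice labelled Rag1-/-. Il17a was too low to be tested, with 2, 2 and 2 reads in co-housed Tcra-/- mice, against 12, 8 and 19 reads in wild type mice.

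Few B cell markers differed, while genes of the germinal centre and of IgA plasma cells were lower in part. Of 23 B cell markers, all tested, 1 was called lower and 0 higher, with a median of -0.31, and their summed level was 222 to 317 CPM in co-housed Tcra-/- mice, against 302 to 365 CPM in wild type mice. Ms4a1, the CD20 membrane protein of B cells, measured 24.7, 26.6 and 21.1 CPM in co-housed Tcra-/- mice, against 39.5, 23.4 and 32.4 CPM in wild type mice, with overlapping groups (log2 fold change -0.40, SE 0.22, adjusted p = 0.2, edgeR). Cd79a, which relays antigen receptor signals in B cells, was not called either, at -0.43. Of 14 germinal centre genes, all tested, 8 were called lower and 0 higher, with a median of -0.83. Gcet2, a germinal centre signalling adaptor, measured 0.286, 0.389 and 0.371 CPM in co-housed Tcra-/- mice, against 4.7, 4.19 and 4.25 CPM in wild type mice. Gcet2 had a log2 fold change of -3.63 ± 0.33 (SE, adjusted p = 8.9e-07). Mef2b and Mybl1, transcription factors of germinal centre B cells, had log2 fold changes of -3.96 (SE 0.51) and -2.22 (SE 0.25). The number of germinal centre genes called lower was 5 in the fit of 6 libraries and 5 without co-housed mouse TCRaCox3155. Of 15 plasma cell and IgA genes, 7 were called lower and 3 higher, with a median of -1.08. Igj, the joining chain of secreted IgA, measured 302, 420.2 and 182 CPM in co-housed Tcra-/- mice, against 1229, 1265 and 1722 CPM in wild type mice, with no overlap. Igj had a log2 fold change of -2.22 ± 0.33 (SE, adjusted p = 0.001). Pigr, the epithelial receptor that carries IgA into the lumen, measured 1772, 1622 and 1604 CPM in co-housed Tcra-/- mice, against 3282, 3888 and 4007 CPM in wild type mice. Pigr had a log2 fold change of -1.16 ± 0.10 (SE, adjusted p = 4.6e-07). 2010001M09Rik, named Mzb1 in later annotations, an endoplasmic reticulum protein of plasma cells, fell by 1.85, Pou2af1, a B cell coactivator, by 1.15 and Derl3 of protein quality control by 2.02 on the log2 scale. Xbp1, the secretory cell transcription factor that epithelial cells also use, rose to 403 ± 17.6 CPM on average, against 279.9 ± 29.2 CPM in wild type. Xbp1 had a log2 fold change of 0.52 ± 0.08 (SE, adjusted p = 2.0e-04). The plot of lymphocyte genes shows these levels for all 4 groups.

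**Figure D2:**
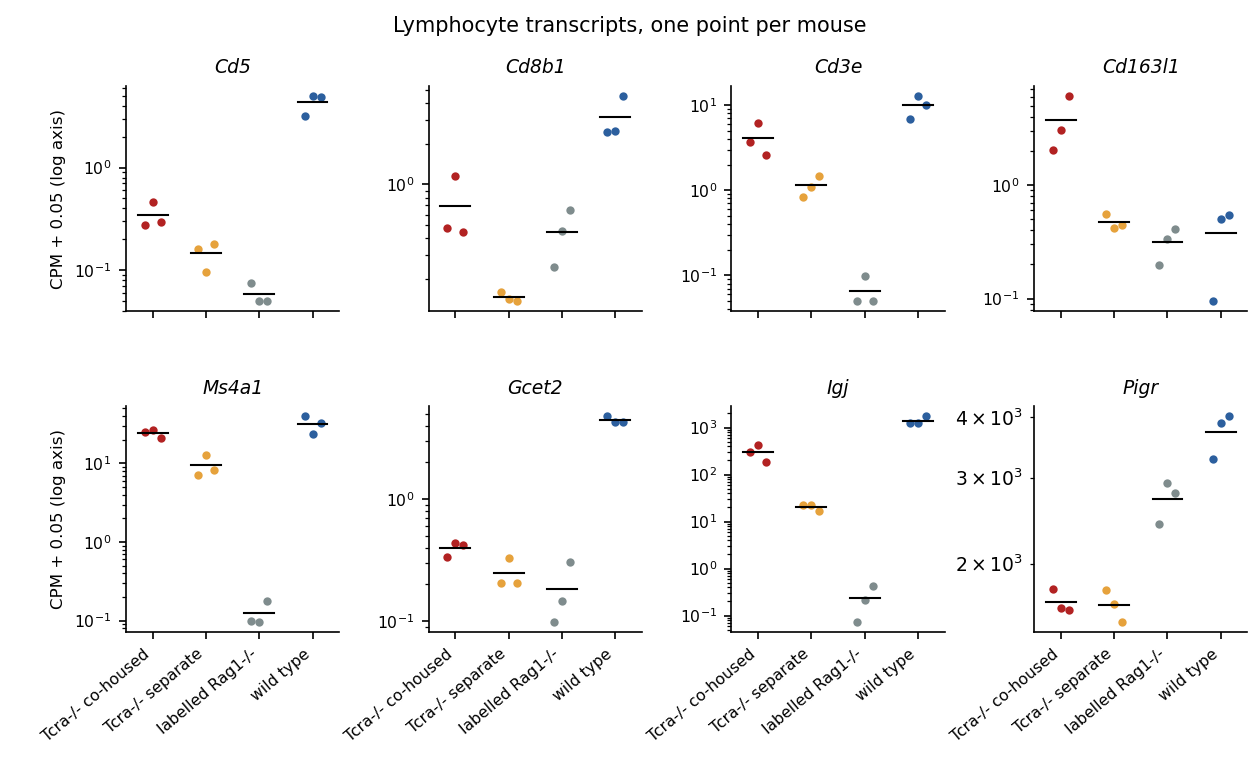
CPM per mouse (points, log axis, with 0.05 CPM added) and group mean (line) of 8 lymphocyte and IgA genes, with co-housed Tcra-/-, separately housed Tcra-/-, labelled Rag1-/- and wild type mice from left to right. Cd5 and Gcet2 were lower in co-housed Tcra-/- than in wild type mice, Cd163l1 was higher, and Ms4a1 overlapped.

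Epithelial defence genes that respond to IL-22 and STAT3 were higher. Of 32 listed, 31 were tested, and 15 were called higher and 3 lower, with a median log2 fold change of 1.39. Their summed level, most of it from Reg3b and Reg3g, was 83015 to 112800.0 CPM in co-housed Tcra-/- mice, against 15216 to 27399 CPM in wild type mice. Il22 itself (chr10:117642020-117647102 on the + strand of mm9) measured 2.08, 2.51 and 1.49 CPM in co-housed Tcra-/- mice, against 0.135, 0.0906 and 0.0671 CPM in wild type mice. Every co-housed mouse had more than 10 times the level of any wild type mouse (log2 fold change 4.34 ± 0.43 (SE), adjusted p = 5.5e-06). Il22 was at 0 reads in the separately housed Tcra-/- mice, so that the co-housed level, 243 reads in all, was at least 91.3-fold higher, taking 3 reads over the group as the floor. Reg3g (chr6:78416262-78418868 on the - strand of mm9), an antimicrobial lectin that acts on Gram-positive bacteria, measured 32691, 29474 and 43143 CPM in co-housed Tcra-/- mice, against 5349.6, 4611 and 8507 CPM in wild type mice. Reg3g had a log2 fold change of 2.51 ± 0.35 (SE, adjusted p = 6.7e-04). Reg3b, its close relative, measured 54814, 49257 and 63534 CPM in co-housed Tcra-/- mice, against 10904, 8634 and 16750.0 CPM in wild type mice. Reg3b had a log2 fold change of 2.21 ± 0.37 (SE, adjusted p = 0.0019), and adjusted p 0.0109 without wild type mouse WTB6x3159. Socs3, the inhibitor that STAT3 induces, measured 263, 265 and 290.3 CPM in co-housed Tcra-/- mice, against 35.8, 38.4 and 57.6 CPM in wild type mice, a narrow range within each group and no overlap. Socs3 had a log2 fold change of 2.63 ± 0.30 (SE, adjusted p = 2.3e-04). Saa1, a serum amyloid A, measured 702, 524 and 1165 CPM in co-housed Tcra-/- mice, against 149, 142 and 261 CPM in wild type mice. Saa1 had a log2 fold change of 2.12 ± 0.42 (SE, adjusted p = 0.0059). The Saa1 call was lost in the fit of 6 libraries (adjusted p 0.0224) and without co-housed mouse TCRaCox3155 (0.0133) or TCRaCox3157 (0.0148) or wild type mouse WTB6x3159 (0.0289) or WTB6x3160 (0.0287). Lcn2, which binds bacterial siderophores, measured 6.11, 6.58 and 7.72 CPM in co-housed Tcra-/- mice, against 1.08, 0.635 and 2.17 CPM in wild type mice. Lcn2 had a log2 fold change of 2.39 ± 0.31 (SE, adjusted p = 4.8e-05), and 2.99 without mouse WTB6x3167. Il18, an epithelial cytokine, measured 96.3, 90.4 and 115 CPM in co-housed Tcra-/- mice, against 28.7, 19.8 and 30.6 CPM in wild type mice. Il18 had a log2 fold change of 1.93 ± 0.16 (SE, adjusted p = 2.5e-06). Pla2g5, a secreted phospholipase, measured 32.8, 41.8 and 32.1 CPM in co-housed Tcra-/- mice, against 7.56, 7.55 and 11.8 CPM in wild type mice. Pla2g5 had a log2 fold change of 1.99 ± 0.21 (SE, adjusted p = 1.7e-05). Among the 3 lower genes was Il22ra1, the epithelial chain of the IL-22 receptor, at 193, 136 and 145 CPM in co-housed Tcra-/- mice, against 325, 304 and 300.2 CPM in wild type mice (log2 fold change -0.97 ± 0.11 (SE), adjusted p = 7.6e-06). Retnlb, the goblet cell protein RELM beta, measured 30.7, 37.8 and 53.9 CPM in co-housed Tcra-/- mice, against 0.742, 1.07 and 1.57 CPM in wild type mice. Retnlb had a log2 fold change of 5.18 ± 0.31 (SE, adjusted p = 1.1e-06). Reads that match more than 1 related family member (Reg3b and Reg3g, Saa1 and Saa2) may have been divided between genes, since the labels do not say how reads with several matches were counted.

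Few other genes of the cells that make type 3 cytokines were called. Of 21 tested genes of group 3 innate lymphoid cells and type 3 cytokines, Il22 was the 1 called higher and 2 were called lower. These counts were below the share of all genes called higher (9.34%) and near that of genes called lower (9.19%). The number higher was 3 without co-housed mouse TCRaCox3155, 2 without wild type mouse WTB6x3167 and 2 with DESeq2's Wald test. Id2, which innate lymphoid cells need and epithelium also expresses, measured 31.2, 30.1 and 27.4 CPM in co-housed Tcra-/- mice, against 49.7, 45.3 and 44.6 CPM in wild type mice. Id2 had a log2 fold change of -0.65 ± 0.09 (SE, adjusted p = 7.0e-05). Il23r, the receptor of the cytokine upstream of Il22, measured 1.03, 0.937 and 0.842 CPM in co-housed Tcra-/- mice, against 0.315, 0.521 and 0.335 CPM in wild type mice and missed the threshold. Il23r had a log2 fold change of 1.25 ± 0.36 (SE, adjusted p = 0.015). Of 11 tested genes of the antimicrobial oxidases and their partners, 1 was called higher, near the share of all genes (9.34%). The number was 4 in the fit of 6 libraries and 3 with DESeq2's Wald test. The 1 was Gpx2, an epithelial glutathione peroxidase, at 1118, 995 and 1356 CPM in co-housed Tcra-/- mice, against 301, 311 and 358 CPM in wild type mice (log2 fold change 1.84 ± 0.15 (SE), adjusted p = 2.2e-06). Nos2, the inducible nitric oxide synthase, measured 795, 607 and 675 CPM in co-housed Tcra-/- mice, against 434, 363 and 397 CPM in wild type mice, past the spread of the mice but not the threshold. Nos2 had a log2 fold change of 0.80 ± 0.23 (SE, adjusted p = 0.026). Nos2 was called in the fit of 6 libraries (adjusted p = 0.00057) and with DESeq2's Wald test (adjusted p = 0.00603). None of 17 tested Paneth cell genes was called. Lyz1, the Paneth cell lysozyme, measured 4288, 2595 and 10123 CPM in co-housed Tcra-/- mice, against 8412, 5654 and 7077 CPM in wild type mice, and mouse TCRaCox3157 was the highest and mouse TCRaCox3156 the lowest of all 6.

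**Figure D3:**
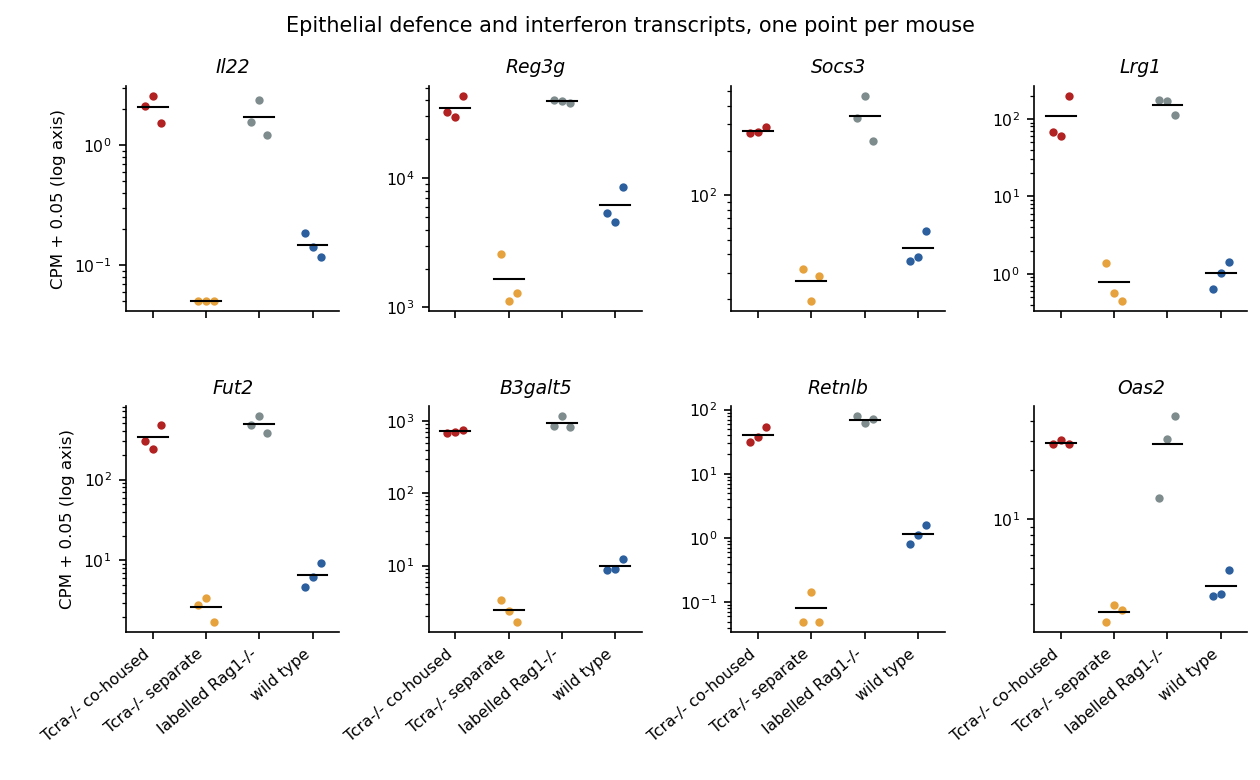
CPM per mouse (points, log axis, with 0.05 CPM added) and group mean (line) of 8 defence, glycan and interferon genes, with co-housed Tcra-/-, separately housed Tcra-/-, labelled Rag1-/- and wild type mice from left to right. In each gene the 3 co-housed Tcra-/- mice lay above the 3 wild type mice, as in Il22 at 1.49 to 2.51 CPM, against 0.0671 to 0.135 CPM in wild type.

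Enzymes that build surface glycans moved in both directions. Of 25 tested, 9 were called higher and 5 lower, with a median of 0.06. B3galt5 (chr16:96457408-96541465 on the + strand of mm9), which adds galactose in type 1 chains, measured 688, 702 and 753 CPM in co-housed Tcra-/- mice, against 8.59, 8.79 and 12.3 CPM in wild type mice. B3galt5 had a log2 fold change of 6.17 ± 0.24 (SE, adjusted p = 4.2e-08). Fut2, which adds the alpha-1,2-linked fucose of the ileal surface, measured 299.7, 237 and 471 CPM in co-housed Tcra-/- mice, against 4.61, 6.12 and 9.14 CPM in wild type mice, with mouse TCRaCox3157 at the top. Fut2 had a log2 fold change of 5.66 ± 0.41 (SE, adjusted p = 1.7e-05). B3gnt7, which extends keratan sulphate-like chains, measured 321, 298 and 394 CPM in co-housed Tcra-/- mice, against 31.1, 44.7 and 45.1 CPM in wild type mice. B3gnt7 had a log2 fold change of 3.07 ± 0.18 (SE, adjusted p = 3.3e-07). Chst4, which sulphates N-acetylglucosamine, averaged 195 ± 32.5 CPM in co-housed and 17.7 ± 2.4 CPM in wild type mice. Chst4 had a log2 fold change of 3.46 ± 0.13 (SE, adjusted p = 4.5e-10). B4galt1, a galactosyltransferase, averaged 412 ± 58.6 CPM in co-housed and 176 ± 9.59 CPM in wild type mice (log2 fold change 1.22 ± 0.10 (SE), adjusted p = 6.9e-07). The 5 lower genes were St3gal6, St6gal1 and St3gal1, which add sialic acid, with B4galnt1 and Galnt7, and 8 were lower with library size alone as the scaling.

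Genes induced by type I interferon were higher in the co-housed Tcra-/- mice. Of 29 listed, all tested, 20 were called higher and 0 lower, with a median of 1.123, and their summed level was 2218 to 3044 CPM in co-housed Tcra-/- mice, against 1375 to 1637 CPM in wild type mice. Mx2, an antiviral GTPase, measured 16.7, 22.6 and 13.4 CPM in co-housed Tcra-/- mice, against 2.43, 3.33 and 3.33 CPM in wild type mice. Mx2 had a log2 fold change of 2.53 ± 0.20 (SE, adjusted p = 5.0e-07). Oas2, a 2',5'-oligoadenylate synthetase that senses double-stranded RNA, measured 28.8, 30.4 and 28.9 CPM in co-housed Tcra-/- mice, against 3.33, 3.42 and 4.81 CPM in wild type mice, about the same in each co-housed mouse. Oas2 had a log2 fold change of 2.93 ± 0.37 (SE, adjusted p = 2.9e-04). Oas1a of the same family measured 30.6, 37.6 and 32 CPM in co-housed Tcra-/- mice, against 9.36, 11.3 and 11.3 CPM in wild type mice. Oas1a had a log2 fold change of 1.65 ± 0.18 (SE, adjusted p = 2.2e-05). Ifi44 measured 36.4, 57.3 and 29.7 CPM in co-housed Tcra-/- mice, against 2.18, 4.76 and 5.19 CPM in wild type mice. Ifi44 had a log2 fold change of 3.35 ± 0.46 (SE, adjusted p = 7.0e-04). Isg15, the ubiquitin-like modifier, measured 59.4, 69.8 and 50.6 CPM in co-housed Tcra-/- mice, against 14.4, 16.8 and 16.6 CPM in wild type mice. Isg15 had a log2 fold change of 1.91 ± 0.38 (SE, adjusted p = 0.0052). In all 5 of these genes mouse TCRaCox3156 was the highest of the co-housed group. The Isg15 call was lost whichever of the 6 mice was left out, at adjusted p from 0.011 to 0.025, although the groups were far apart. The number of type I genes called higher was 13 without co-housed mouse TCRaCox3156, 12 without wild type mouse WTB6x3159, 13 without wild type mouse WTB6x3160 and 13 without wild type mouse WTB6x3167. Ifi27l2a measured 23.4, 28.6 and 29.3 CPM in co-housed Tcra-/- mice, against 15, 13.2 and 14.1 CPM in wild type mice (log2 fold change 0.94 ± 0.13 (SE), adjusted p = 4.8e-05), and it was also higher than in mice labelled Rag1-/-, at a mean of 10.7 CPM (1.34, adjusted p = 4.7e-06, edgeR). It was the only 1 of the 29 genes called against mice labelled Rag1-/-, near the 2.55% of all genes called higher there, and the median was 0.17. In mice labelled Rag1-/- against wild type, 11 of the 29 were called higher and 0 lower.

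Genes induced by interferon gamma were higher as well but varied more among the co-housed mice. Of 31 listed, all tested, 11 were called higher and 1 lower, with a median of 1.15 and a summed level of 2390.4 to 3956 CPM in co-housed Tcra-/- mice, against 1586 to 2376 CPM in wild type mice. Tgtp1, a GTPase that shares exonic bases with Tgtp2, measured 6.71, 13.1 and 3.24 CPM in co-housed Tcra-/- mice, against 0.697, 0.906 and 1.34 CPM in wild type mice. Mouse TCRaCox3156 was the highest and mouse TCRaCox3157 the lowest of the co-housed group, and all 3 lay above wild type (log2 fold change 2.97 ± 0.49 (SE), adjusted p = 8.2e-04; 2.34 without mouse TCRaCox3156). Gbp5, a guanylate-binding protein, measured 15.5, 22.6 and 9.76 CPM in co-housed Tcra-/- mice, against 5.62, 5.91 and 8.07 CPM in wild type mice with the same co-housed mouse at the top. Gbp5 had a log2 fold change of 1.29 ± 0.25 (SE, adjusted p = 0.0014), and adjusted p 0.0166 in the fit of 6 libraries and 0.0107 without wild type mouse WTB6x3160. Gm4841, a predicted gene of the interferon-inducible GTPase family, measured 11.7, 20.7 and 5.79 CPM in co-housed Tcra-/- mice, against 0.607, 1.41 and 1.43 CPM in wild type mice. Gm4841 had a log2 fold change of 3.47 ± 0.43 (SE, adjusted p = 9.6e-05). Igtp, an immunity-related GTPase, measured 162, 257 and 129 CPM in co-housed Tcra-/- mice, against 35.9, 90.8 and 91.9 CPM in wild type mice and missed the threshold. Igtp had a log2 fold change of 1.33 ± 0.39 (SE, adjusted p = 0.034). Ifngr2, a chain of the interferon gamma receptor, was the lower gene, at 185, 153 and 165 CPM in co-housed Tcra-/- mice, against 270.3, 280.1 and 256 CPM in wild type mice. Ifngr2 had a log2 fold change of -0.68 ± 0.08 (SE, adjusted p = 1.6e-05). The number called higher was 2 in the fit of 6 libraries, 19 with DESeq2's Wald test, 5 without wild type mouse WTB6x3159 and 3 without wild type mouse WTB6x3160. Against mice labelled Rag1-/-, 4 of the 31 interferon gamma genes were called higher, beside 2.55% of all genes tested. Tgtp1, Gbp5, Gm4841 and H2-Q6, an MHC class I gene, were higher there, by 2.44, 1.42, 3.67 and 1.46 on the log2 scale (adjusted p = 0.0097, 0.0029, 2.3e-04 and 3.3e-04, edgeR). Of 29 MHC class I and immunoproteasome genes, 2 were called higher in that comparison. Against wild type 2 of the 29 were higher and 1 lower, below the shares of all genes. The number higher against wild type was 9 without mouse WTB6x3160, and 5 without mouse TCRaCox3157 and with DESeq2's Wald test. None of the 12 MHC class II genes was called against wild type (median -0.30). H2-Ab1, which presents peptides to helper T cells, measured 729, 679.9 and 485 CPM in co-housed Tcra-/- mice, against 789, 1086 and 696 CPM in wild type mice (log2 fold change -0.44 ± 0.17 (SE), adjusted p = 0.069), and it averaged 75.9 CPM in separately housed Tcra-/- mice.

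The promoters of interferon-induced genes carry a known control element, the interferon-stimulated response element, whose core was searched here as GAAA, any 2 bases and GAAA, on both strands and with overlapping matches allowed, from 250 bases before to 50 bases after the start site. RefSeq sequences of build GRCm38.p6 were at hand for 20 of the 29 type I genes and 21 of the 31 interferon gamma genes, some with several promoters. The core stood in 13 of 22 type I promoters (59.1%) and in 12 of 24 interferon gamma promoters, against 443 of the 14082 promoters of all genes tested (3.15%). It stood in 4.63% of promoters of the genes called higher and in 1.85% of those called lower. A match is a run of letters and not evidence of binding. The promoters of 4 genes named above that hold a match are shown, 2 from each list, while that of Ifi44 held none. Each is written 5' to 3' on the gene's own strand with the matches in capitals.
Oas1a promoter, chr5:120907476-120907775, - strand: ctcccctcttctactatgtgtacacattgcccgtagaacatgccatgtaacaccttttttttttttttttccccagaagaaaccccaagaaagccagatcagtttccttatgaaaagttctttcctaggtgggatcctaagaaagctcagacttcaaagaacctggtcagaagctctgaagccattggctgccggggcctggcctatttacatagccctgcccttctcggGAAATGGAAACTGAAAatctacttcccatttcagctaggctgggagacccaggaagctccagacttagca
Isg15 promoter, chr4:156200769-156201068, - strand: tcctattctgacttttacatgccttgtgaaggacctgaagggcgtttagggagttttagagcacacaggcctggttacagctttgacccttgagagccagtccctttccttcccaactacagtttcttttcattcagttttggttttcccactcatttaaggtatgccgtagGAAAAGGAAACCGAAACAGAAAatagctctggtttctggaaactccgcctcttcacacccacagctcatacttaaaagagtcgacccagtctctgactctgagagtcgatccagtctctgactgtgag
Tgtp1 promoter, chr11:48992197-48992496, - strand: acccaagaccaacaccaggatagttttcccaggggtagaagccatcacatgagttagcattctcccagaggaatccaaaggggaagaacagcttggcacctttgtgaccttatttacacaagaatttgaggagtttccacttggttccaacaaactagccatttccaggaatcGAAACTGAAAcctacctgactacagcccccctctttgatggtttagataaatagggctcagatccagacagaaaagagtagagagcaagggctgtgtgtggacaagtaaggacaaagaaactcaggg
Gbp5 promoter, chr3:142496684-142496983, + strand: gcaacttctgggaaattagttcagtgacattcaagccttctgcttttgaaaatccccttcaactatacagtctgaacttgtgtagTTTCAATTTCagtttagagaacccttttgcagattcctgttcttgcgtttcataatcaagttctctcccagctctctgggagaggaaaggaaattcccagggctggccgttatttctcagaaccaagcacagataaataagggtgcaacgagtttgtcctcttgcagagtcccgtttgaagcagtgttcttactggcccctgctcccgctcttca
The matches in the Oas1a promoter began 20 and 14 bases before the start site and overlapped, as did those in the Isg15 promoter, at 78, 72 and 66 bases before it. The Tgtp1 promoter held 1 match, at 77 bases before the start site, and the Gbp5 promoter 1, at 165 bases before it. The TTCNNNGAA core that STAT proteins recognise was found in 3 of 26 promoters (11.5%) of the IL-22 and STAT3 list, in 10 of 24 interferon gamma promoters (41.7%) and in 4 of 22 type I promoters (18.2%), beside 7.13% of the promoters of all genes tested.

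Part of the genes of dividing crypt cells were higher, by small amounts. Of 24 proliferation genes, all tested, 11 were called higher and 0 lower, with a median of 0.45. Birc5, a mitotic survivin, averaged 54.2 ± 4.78 CPM in co-housed and 34 ± 2.49 CPM in wild type mice. Birc5 had a log2 fold change of 0.67 ± 0.09 (SE, adjusted p = 5.4e-05). Tyms, the thymidylate synthase, averaged 24.6 ± 0.715 CPM in co-housed and 15.1 ± 1.22 CPM in wild type mice. Tyms had a log2 fold change of 0.70 ± 0.13 (SE, adjusted p = 7.0e-04). Ube2c, a mitotic ubiquitin-conjugating enzyme, averaged 41.7 ± 2.18 CPM in co-housed and 30.2 ± 0.973 CPM in wild type mice. Ube2c had a log2 fold change of 0.46 ± 0.08 (SE, adjusted p = 3.0e-04). The number was 5 with library size alone, 17 with DESeq2's Wald test, 7 without co-housed mouse TCRaCox3155, 6 without co-housed mouse TCRaCox3156, 6 without wild type mouse WTB6x3159 and 5 without wild type mouse WTB6x3160. Of 21 stem cell and Wnt genes, 2 were called higher, near the share of all genes called higher (9.34%). The number was 1 with library size alone. Ccnd1, the G1 cyclin, measured 263, 307 and 286 CPM in co-housed Tcra-/- mice, against 91.7, 123 and 107 CPM in wild type mice, with no overlap. Ccnd1 had a log2 fold change of 1.41 ± 0.12 (SE, adjusted p = 8.1e-07). Of the secretory lineages, 5 of 17 goblet cell genes were called lower and 3 higher, 3 of 16 tuft cell genes were lower and 4 of 19 enteroendocrine genes were lower. The goblet cell count was 10 lower and 1 higher with library size alone, 3 lower in the fit of 6 libraries, and 1 higher without mouse TCRaCox3155, TCRaCox3157, WTB6x3159 or WTB6x3160. The enteroendocrine count was 1 in the fit of 6 libraries and without wild type mouse WTB6x3160, and 2 without wild type mouse WTB6x3159. Zg16, a goblet cell lectin, averaged 2776 ± 233 CPM in co-housed and 4004 ± 478 CPM in wild type mice. Zg16 had a log2 fold change of -0.53 ± 0.09 (SE, adjusted p = 5.6e-04). Trpm5, the taste channel of tuft cells, averaged 5.84 ± 0.791 CPM in co-housed and 12.9 ± 1.02 CPM in wild type mice. Trpm5 had a log2 fold change of -1.14 ± 0.18 (SE, adjusted p = 2.3e-04). Dclk1, a tuft cell kinase, averaged 8.86 ± 0.552 CPM in co-housed and 14 ± 0.399 CPM in wild type mice. Dclk1 had a log2 fold change of -0.66 ± 0.12 (SE, adjusted p = 4.9e-04). Reg4, a secreted lectin of secretory cells, measured 8.54, 6.79 and 6.14 CPM in co-housed Tcra-/- mice, against 76.1, 58.5 and 44.4 CPM in wild type mice. Reg4 had a log2 fold change of -3.06 ± 0.44 (SE, adjusted p = 0.001).

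Many genes of digestion and uptake were lower. Of 21 tested brush border enzymes, 10 were called lower and 0 higher, with a median of -0.44, and the number was 6 in the fit of 6 libraries, without co-housed mouse TCRaCox3156, without wild type mouse WTB6x3159 and without wild type mouse WTB6x3160. Alpi, the intestinal alkaline phosphatase, measured 315, 214 and 244 CPM in co-housed Tcra-/- mice, against 573, 580.1 and 452 CPM in wild type mice. Alpi had a log2 fold change of -1.06 ± 0.13 (SE, adjusted p = 5.3e-05). Xpnpep2, an aminopeptidase, measured 394, 341 and 275 CPM in co-housed Tcra-/- mice, against 683, 735 and 626 CPM in wild type mice. Xpnpep2 had a log2 fold change of -1.02 ± 0.13 (SE, adjusted p = 4.1e-05). Of 25 tested nutrient transport and sugar handling genes, 14 were called lower and 3 higher, with a median of -0.55, and the number higher was 1 with library size alone, in the fit of 6 libraries and without mouse TCRaCox3155, TCRaCox3156 or WTB6x3159, and 0 without mouse WTB6x3167. Slc2a5, the fructose transporter, measured 14.9, 9.97 and 16.9 CPM in co-housed Tcra-/- mice, against 34.3, 44.6 and 43.8 CPM in wild type mice. Slc2a5 had a log2 fold change of -1.56 ± 0.24 (SE, adjusted p = 7.9e-04). Khk, the ketohexokinase that starts fructose breakdown, measured 89.6, 74.7 and 71.9 CPM in co-housed Tcra-/- mice, against 160.2, 192 and 152 CPM in wild type mice. Khk had a log2 fold change of -1.10 ± 0.10 (SE, adjusted p = 8.1e-07). G6pc, which releases glucose from its phosphate, measured 4.94, 2.1 and 4.51 CPM in co-housed Tcra-/- mice, against 33.3, 40.5 and 36.6 CPM in wild type mice. G6pc had a log2 fold change of -3.27 ± 0.30 (SE, adjusted p = 2.8e-05). Fbp1, an enzyme of gluconeogenesis, measured 2.74, 2.95 and 2.48 CPM in co-housed Tcra-/- mice, against 9.11, 10.02 and 7.45 CPM in wild type mice. Fbp1 had a log2 fold change of -1.70 ± 0.16 (SE, adjusted p = 1.3e-06). In Alpi, Xpnpep2, Khk and G6pc, as in Lct and Slc2a2, mouse TCRaCox3155 was the highest of the co-housed group. Slc15a1, the peptide transporter, averaged 277 ± 48.7 CPM in co-housed and 522 ± 32.5 CPM in wild type mice. Slc15a1 had a log2 fold change of -0.91 ± 0.12 (SE, adjusted p = 6.3e-05). Slc6a20a, a proline transporter, averaged 29.4 ± 6.81 CPM in co-housed and 84.8 ± 8.69 CPM in wild type mice. Slc6a20a had a log2 fold change of -1.53 ± 0.15 (SE, adjusted p = 7.0e-06).

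Genes of lipid absorption and fatty acid oxidation were lower in part. Of 36 lipid absorption genes, 35 were tested, and 14 were called lower and 1 higher, with a median of -0.31. With library size alone 22 were lower. Cd36, a fatty acid receptor, measured 13.1, 13.1 and 11.6 CPM in co-housed Tcra-/- mice, against 27.9, 33.5 and 27.7 CPM in wild type mice. Cd36 had a log2 fold change of -1.24 ± 0.11 (SE, adjusted p = 9.0e-07). Slc27a2, a fatty acid transporter and acyl-CoA synthetase, averaged 17.3 ± 1.68 CPM in co-housed and 31.8 ± 1.2 CPM in wild type mice. Slc27a2 had a log2 fold change of -0.88 ± 0.09 (SE, adjusted p = 1.8e-06). Abcg8, a sterol exporter, averaged 166 ± 7.74 CPM in co-housed and 271 ± 33 CPM in wild type mice. Abcg8 had a log2 fold change of -0.71 ± 0.10 (SE, adjusted p = 8.0e-05). Apoa1, an apolipoprotein of high-density lipoprotein, averaged 3314 ± 766 CPM in co-housed and 6029.6 ± 1020.4 CPM in wild type mice. Apoa1 had a log2 fold change of -0.86 ± 0.17 (SE, adjusted p = 0.0017). Fabp2, the intestinal fatty acid binding protein, measured 3516, 2144 and 2564 CPM in co-housed Tcra-/- mice, against 5727, 5758 and 4145 CPM in wild type mice. Fabp2 had a log2 fold change of -0.93 ± 0.17 (SE, adjusted p = 0.0011), and adjusted p 0.0101 in the fit of 6 libraries. Apoa4 missed the threshold (log2 fold change -0.79 ± 0.22 (SE), adjusted p = 0.024). Of 26 tested fatty acid oxidation and PPAR alpha genes, 11 were called lower and 3 higher, with a median of -0.39. Hadh, of mitochondrial beta oxidation, measured 319.9, 283 and 273 CPM in co-housed Tcra-/- mice, against 552, 579 and 485 CPM in wild type mice. Hadh had a log2 fold change of -0.89 ± 0.09 (SE, adjusted p = 1.8e-06). Ppara, the fasting-responsive nuclear receptor, measured 27.3, 25.3 and 24.3 CPM in co-housed Tcra-/- mice, against 44.2, 50.04 and 36.7 CPM in wild type mice. Ppara had a log2 fold change of -0.77 ± 0.11 (SE, adjusted p = 9.2e-05). Acadl, the long-chain acyl-CoA dehydrogenase of the same pathway, went the other way, at 291, 300.5 and 384 CPM in co-housed Tcra-/- mice, against 79.5, 75.1 and 85.1 CPM in wild type mice. Acadl had a log2 fold change of 2.03 ± 0.09 (SE, adjusted p = 8.1e-10). The synthesis lists had as many higher as lower calls, with 2 higher and 2 lower of 21 fatty acid genes and 3 higher and 3 lower of 24 cholesterol genes. These counts were near the shares of all genes (9.34% higher and 9.19% lower), and the medians were 0.0045 and 0.0021. The number of cholesterol genes was 5 lower without mouse TCRaCox3155 and with DESeq2's Wald test, and 1 higher with library size alone, in the fit of 6 libraries and without mouse WTB6x3159 or WTB6x3167. Fasn, the fatty acid synthase, measured 73.6, 69.6 and 74.4 CPM in co-housed Tcra-/- mice, against 69.4, 72 and 61.4 CPM in wild type mice, with overlapping groups (log2 fold change 0.10 ± 0.09 (SE), adjusted p = 0.44), and the sign of its fold change turned with library size alone (-0.0236). Elovl6, an elongase, and Sqle, the squalene epoxidase, were higher by 0.53 and 0.57 on the log2 scale.

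Many detoxifying genes and some bile acid genes were lower. Of 33 xenobiotic genes, all tested, 21 were called lower and 0 higher, with a median of -0.82. Aadac, a deacetylase of drugs and esters, measured 3.66, 4.25 and 3.12 CPM in co-housed Tcra-/- mice, against 16.4, 13.5 and 12.3 CPM in wild type mice. Aadac had a log2 fold change of -1.93 ± 0.15 (SE, adjusted p = 2.2e-07). Ugt2a3, a glucuronosyltransferase, measured 6.43, 6.52 and 3.57 CPM in co-housed Tcra-/- mice, against 39.8, 44.1 and 32 CPM in wild type mice. Ugt2a3 had a log2 fold change of -2.81 ± 0.22 (SE, adjusted p = 2.7e-06). Ephx2, the soluble epoxide hydrolase, measured 42.1, 35.3 and 37.8 CPM in co-housed Tcra-/- mice, against 112, 123 and 93.2 CPM in wild type mice. Ephx2 had a log2 fold change of -1.51 ± 0.15 (SE, adjusted p = 9.3e-06). Cyp2d26 and Cyp2c66, cytochrome P450 enzymes of large families whose reads may be shared, fell by 3.47 and 4.64 on the log2 scale, and by more without mouse TCRaCox3155 (-4.06 and -5.91). Of 15 tested ileal bile acid genes, 6 were called lower and 1 higher, with a median of -0.28. Slc10a2, the apical bile acid transporter that marks the ileum, and Fgf15, the hormone that bile acids induce in the ileum, were not called (0.23, adjusted p = 0.28, and 0.60, adjusted p = 0.43, edgeR). Cyp27a1, a sterol hydroxylase, measured 15, 15.1 and 12 CPM in co-housed Tcra-/- mice, against 44.5, 43 and 45.9 CPM in wild type mice. Cyp27a1 had a log2 fold change of -1.66 ± 0.17 (SE, adjusted p = 1.9e-05). Abcc2, an export pump for conjugates, measured 42.5, 37.2 and 25.5 CPM in co-housed Tcra-/- mice, against 124, 129 and 127 CPM in wild type mice. Abcc2 had a log2 fold change of -1.85 ± 0.22 (SE, adjusted p = 1.7e-04). Of 22 tested retinoid genes, 5 were called lower and 3 higher. Lrat, which esterifies retinol, measured 10.4, 11 and 9.26 CPM in co-housed Tcra-/- mice, against 30.7, 27.3 and 24.1 CPM in wild type mice. Lrat had a log2 fold change of -1.42 ± 0.13 (SE, adjusted p = 1.0e-06). Rdh7, a retinol dehydrogenase, measured 3.31, 2.51 and 0.842 CPM in co-housed Tcra-/- mice, against 30.8, 37 and 17.5 CPM in wild type mice. Rdh7 had a log2 fold change of -3.69 ± 0.46 (SE, adjusted p = 4.5e-04). Rdh16, another retinol dehydrogenase, was higher at 47.3, 40.9 and 54.3 CPM in co-housed Tcra-/- mice, against 6.43, 5.8 and 6.17 CPM in wild type mice. Rdh16 had a log2 fold change of 2.95 ± 0.13 (SE, adjusted p = 5.4e-10).

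Some genes of salt and water transport and of the cell junctions also differed. Of 20 tested ion and fluid transport genes, 4 were called higher and 6 lower. The number higher was 1 without mouse TCRaCox3157, WTB6x3159 or WTB6x3160, and 2 with library size alone or without mouse TCRaCox3155 or WTB6x3167. Car4, a membrane carbonic anhydrase, measured 431, 454 and 663 CPM in co-housed Tcra-/- mice, against 73.6, 99.9 and 128 CPM in wild type mice. Car4 had a log2 fold change of 2.36 ± 0.23 (SE, adjusted p = 3.6e-05). Aqp1, a water channel, measured 103, 84.4 and 63.1 CPM in co-housed Tcra-/- mice, against 268, 342 and 209.9 CPM in wild type mice. Aqp1 had a log2 fold change of -1.71 ± 0.21 (SE, adjusted p = 1.7e-04). Aqp3, a second water channel, measured 1.03, 0.663 and 1.19 CPM in co-housed Tcra-/- mice, against 3.91, 6.57 and 3.53 CPM in wild type mice. Aqp3 had a log2 fold change of -2.29 ± 0.29 (SE, adjusted p = 3.4e-05). Slc40a1, the iron exporter ferroportin, measured 196, 173 and 229.9 CPM in co-housed Tcra-/- mice, against 99.6, 101 and 123 CPM in wild type mice (log2 fold change 0.89 ± 0.12 (SE), adjusted p = 5.5e-05), and Slc11a2, the iron importer, was lower by a small amount (log2 fold change -0.55 ± 0.08 (SE), adjusted p = 8.4e-05). Of 23 junction genes, 5 were called lower and 2 higher, the latter near the share of all genes called higher (9.34%). The number lower was 3 in the fit of 6 libraries and without mouse TCRaCox3156, WTB6x3159 or WTB6x3160. The number higher was 1 with library size alone and without mouse TCRaCox3155, TCRaCox3156, WTB6x3159, WTB6x3160 or WTB6x3167. Cldn8 and Cldn4, claudins of tight junctions, fell by 2.34 and 1.27 and Ocln, occludin, by 0.57 on the log2 scale, and Marveld3, a relative of occludin, was higher by 0.66. Of 23 enterocyte transcription factors, 9 were called lower and 0 higher, with a median of -0.18, among them Vdr, the vitamin D receptor (-0.57, SE 0.08), and Hnf4g, which maintains enterocyte genes (-0.55, SE 0.10). Of 19 clock genes, 5 were called lower (8 with DESeq2's Wald test) and 1 higher, with a median of -0.55. The lower genes included Npas2 (-0.54, SE 0.10) and Cry2, a core repressor that shares exonic bases with another listed gene (-1.41, SE 0.18). Nfil3, a clock-linked transcription factor of epithelium, was the higher one, at 26.7, 30.5 and 38.9 CPM in co-housed Tcra-/- mice, against 18.1, 19.9 and 19.7 CPM in wild type mice. Nfil3 had a log2 fold change of 0.74 ± 0.14 (SE, adjusted p = 0.0014). Nr1d1, a clock repressor that acts on Nfil3, measured 10.03, 8.64 and 11.1 CPM in co-housed Tcra-/- mice, against 29.4, 42.4 and 76.7 CPM in wild type mice, without overlap, and missed the threshold. Nr1d1 had a log2 fold change of -2.32 ± 0.65 (SE, adjusted p = 0.028). The hour at which each mouse was sampled is not in the labels, so its part in the clock genes was not tested.

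Part of the chemokine genes were higher. Of 25 tested chemokine genes, 10 were called higher and 1 lower, with a median of 0.49. The number higher was 5 in the fit of 6 libraries, 5 without wild type mouse WTB6x3159 and 4 without wild type mouse WTB6x3160. Ccl24, an eosinophil attractant, measured 2.11, 2.81 and 3.54 CPM in co-housed Tcra-/- mice, against 0.36, 0.589 and 0.358 CPM in wild type mice. Ccl24 had a log2 fold change of 2.69 ± 0.27 (SE, adjusted p = 2.4e-06). Ccl17 measured 1.57, 1.9 and 1.73 CPM in co-housed Tcra-/- mice, against 0.382, 0.34 and 0.402 CPM in wild type mice. Ccl17 had a log2 fold change of 2.203 ± 0.30 (SE, adjusted p = 4.5e-05). Ccl22, which shares the receptor CCR4 with Ccl17, measured 7.23, 7.06 and 5.57 CPM in co-housed Tcra-/- mice, against 2.41, 3.78 and 3.69 CPM in wild type mice. Ccl22 had a log2 fold change of 1.01 ± 0.18 (SE, adjusted p = 5.9e-04). Of 20 tested complement genes, 3 were called higher, and 5 in the fit of 6 libraries. Cfi, a protease that restrains complement, measured 29.4, 25.7 and 43.2 CPM in co-housed Tcra-/- mice, against 3.94, 2.61 and 6.55 CPM in wild type mice. Cfi had a log2 fold change of 2.91 ± 0.34 (SE, adjusted p = 1.9e-04). C4b of the classical pathway measured 16, 23.8 and 19 CPM in co-housed Tcra-/- mice, against 9.22, 11.1 and 13.1 CPM in wild type mice. C4b had a log2 fold change of 0.82 ± 0.14 (SE, adjusted p = 4.4e-04). Of 24 myeloid markers 3 were called higher, near the share of all genes, and the number was 1 in the fit of 6 libraries and without mouse TCRaCox3156, WTB6x3159 or WTB6x3160, and 5 without mouse WTB6x3167. Clec9a, a marker of cross-presenting dendritic cells, measured 4.06, 6.4 and 3.44 CPM in co-housed Tcra-/- mice, against 1.48, 2.29 and 1.21 CPM in wild type mice. Clec9a had a log2 fold change of 1.48 ± 0.29 (SE, adjusted p = 0.0012).

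A few chaperone genes were higher. Of 21 immediate early and heat shock genes, 4 were called higher and 0 lower, with a median of 0.37. The 4 were the chaperones Hspa1b, Hspa5, Hspa1a and Hspa8, and no immediate early gene was called. The Hspa8 call was lost under 7 alternatives. The Hspa1a call was lost in the fit of 6 libraries and without wild type mouse WTB6x3160. The number higher was 2 without wild type mouse WTB6x3160 and 9 with DESeq2's Wald test. The summed level of the 21 genes was 5682 to 7000.4 CPM in co-housed Tcra-/- mice, against 3498 to 4357 CPM in wild type mice. Hspa1b, an inducible chaperone with a near-identical copy in Hspa1a, measured 61.3, 71.3 and 48.6 CPM in co-housed Tcra-/- mice, against 19.4, 14.3 and 8.09 CPM in wild type mice. Hspa1b had a log2 fold change of 2.12 ± 0.32 (SE, adjusted p = 9.6e-04). Hspa5, the chaperone of the endoplasmic reticulum, measured 1598, 2078 and 1529 CPM in co-housed Tcra-/- mice, against 929, 869.8 and 1146 CPM in wild type mice. Hspa5 had a log2 fold change of 0.82 ± 0.16 (SE, adjusted p = 0.0015). Hspa1b was also higher than in mice labelled Rag1-/-, at a mean of 17.4 CPM (1.80, adjusted p = 0.0094, edgeR). The part of sample handling in the other differences was not tested. Markers of other tissue layers differed less. Of 13 fibroblast markers 1 was called lower, of 14 neuron and glia markers 1 was higher, and the summed smooth muscle level was 2736 to 4342 CPM in co-housed Tcra-/- mice, against 2932 to 3299 CPM in wild type mice. Of 9 tested genes of the proximal small intestine 3 were called lower and 1 higher, and of 6 tested colon genes 2 were lower. Each of these counts of lower genes was 1 in the fit of 6 libraries and without mouse TCRaCox3156 or WTB6x3160.

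**Figure D4:**
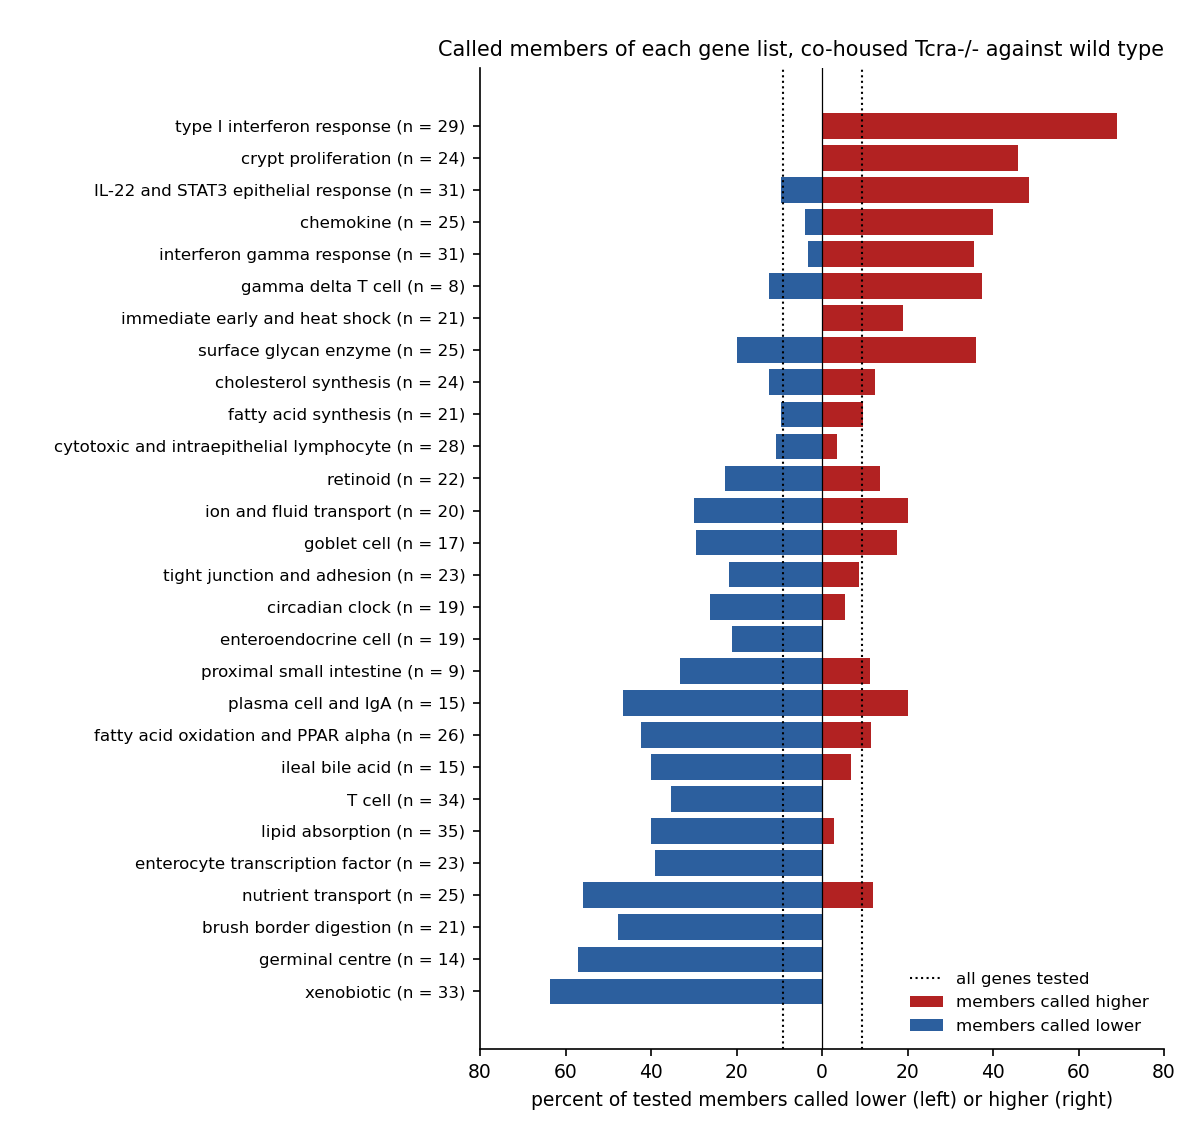
For each of 28 gene lists with at least 4 called members, bars give the percentage of tested members called lower (left) and higher (right) in co-housed Tcra-/- over wild type mice, and dotted lines give the same over all genes, 9.19% lower and 9.34% higher. The type I interferon list, with 20 of 29 higher, and the xenobiotic list, with 21 of 33 lower, have long bars on opposite sides.

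The co-housed Tcra-/- mice were also set against the other mutants. Against mice labelled Rag1-/-, the group whose Rag1 reads go against its label, 459 genes were called (2.89% of those tested), 405 higher (2.55%) and 54 lower (0.34%). Of the B cell markers 21 of 23 were called higher, and of the T cell markers 19 of 34. Faim3, the IgM Fc receptor, had 950 reads in the co-housed mice and 0 in mice labelled Rag1-/-, so it was at least 345-fold higher with a floor of 3 reads over the group. Cd3e had 498 reads, against 2, a ratio of 271 with a 95% exact interval from 74.8 to 2247, which covers counting error only. Of the IL-22 and STAT3 list 0 of 31 were called in either direction (median -0.29), of the xenobiotic list 0 of 33 (median -0.25) and of the lipid absorption list 0 of 35 (median -0.03). Il22 averaged 2.03 ± 0.517 CPM in co-housed Tcra-/- mice and 1.66 ± 0.593 CPM in mice labelled Rag1-/-. Il22 had a log2 fold change of 0.29 ± 0.31 (SE, adjusted p = 0.69) in edgeR. Reg3g averaged 35103 ± 7146 CPM in co-housed and 39269 ± 1129.9 CPM in mice labelled Rag1-/- (log2 fold change -0.16 ± 0.33 (SE), adjusted p = 0.86, edgeR). Pigr was lower in the co-housed mice, at 1666 ± 91.8 CPM, against 2713 ± 268 CPM (log2 fold change -0.70 ± 0.10 (SE), adjusted p = 1.6e-04, edgeR). Scd1, the stearoyl-CoA desaturase, was higher, at 32.1 ± 3.6 CPM, against 9.64 ± 2.34 CPM (log2 fold change 1.73 ± 0.24 (SE), adjusted p = 0.0012, edgeR), as was Clcf1, a cytokine of the IL-6 family, at 3.86 ± 0.671 CPM, against 0.368 ± 0.114 CPM (log2 fold change 3.37 ± 0.24 (SE), adjusted p = 1.7e-07, edgeR). Against separately housed Tcra-/- mice, which share the genotype, 6156 genes were called (38.8%), 3347 higher (21.1%) and 2809 lower (17.7%). The separately housed mice in turn differed from the same wild type mice in 2182 genes (13.8%), 961 higher (6.06%) and 1221 lower (7.7%). Of the IL-22 and STAT3 list 26 genes were higher and 3 lower in the co-housed than in the separately housed mice, while 1 was higher and 11 lower in the separately housed mice than in wild type, and of the MHC class II list 12 genes were higher and 0 lower in the co-housed than in the separately housed mice, while 0 were higher and 10 lower in the separately housed mice than in wild type. These comparisons share mice, so they are set side by side without a test of their likeness.

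**Figure D5:**
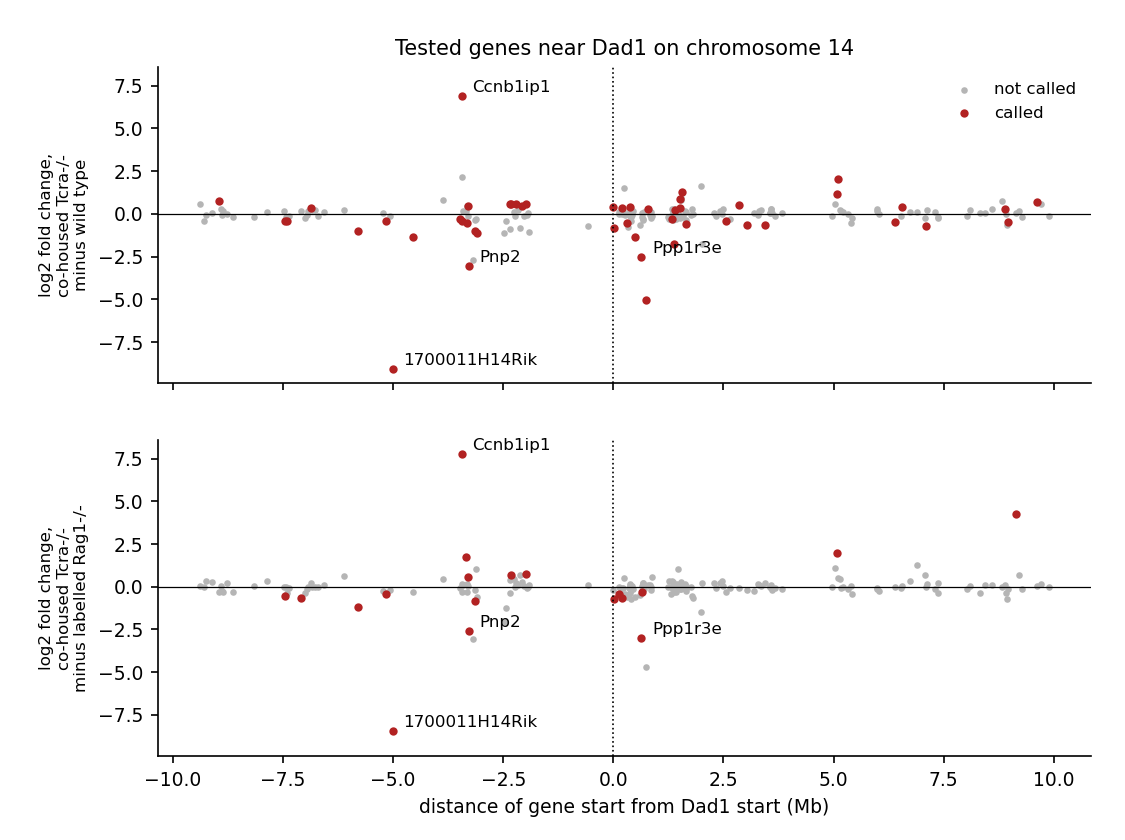
Log2 fold change of the 197 tested genes within 10 Mb of the start of Dad1 on chromosome 14, against distance from that start in Mb, for co-housed Tcra-/- over wild type (upper panel) and co-housed Tcra-/- over mice labelled Rag1-/- (lower panel). Called genes are coloured, and Ccnb1ip1, Pnp2 and 1700011H14Rik lie far from 0 in both panels.

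Several genes on chromosome 14 near the Tcra locus differed in a way the lists above do not describe. They were picked out after their values were seen. Within 10 Mb of Dad1, the gene next to the Tcra locus, 197 genes were tested. Of these 49 were called against wild type (24.9%, against 18.5% of all genes), 23 higher and 26 lower. Against mice labelled Rag1-/- 19 were called (9.64%, against 2.89%), 7 higher and 12 lower, out of the 54 genes that were lower in all. In the separately housed Tcra-/- mice against wild type the count was 44 (22.3%, against 13.8%), and in mice labelled Rag1-/- against wild type 30 (15.2%, against 20.9%). 1700011H14Rik (chr14:49846034-49865103 on the - strand of mm9) measured 0.2, 0 and 0 CPM in co-housed Tcra-/- mice, against 30.4, 35.2 and 33.7 CPM in wild type mice. Reads came from 1 co-housed mouse only (log2 fold change -9.06 ± 0.47 (SE), adjusted p = 1.2e-07; -13.50 without mouse TCRaCox3155 and -8.43 without mouse TCRaCox3156). It averaged 1.04 CPM in separately housed Tcra-/- mice and 21.6 CPM in mice labelled Rag1-/-. Pnp2 (chr14:51575816-51584424 on the + strand of mm9), a purine nucleoside phosphorylase, measured 12.7, 10.3 and 11 CPM in co-housed Tcra-/- mice, against 85.8, 103 and 90.3 CPM in wild type mice (log2 fold change -3.04 ± 0.11 (SE), adjusted p = 3.9e-11), with 7.45 CPM in separately housed Tcra-/- and 68.6 CPM in mice labelled Rag1-/-. Ccnb1ip1 (chr14:51408924-51415403 on the - strand of mm9), a ubiquitin ligase of meiotic crossing over, went the other way, at 4.43, 2.9 and 4.43 CPM in co-housed Tcra-/- mice, against 0.045, 0.0453 and 0 CPM in wild type mice (log2 fold change 6.89 ± 0.54 (SE), adjusted p = 2.1e-07), with 1.32 CPM in separately housed Tcra-/- and 0.0142 CPM in mice labelled Rag1-/-. Ppp1r3e (chr14:55494434-55496375 on the - strand of mm9), a glycogen-targeting phosphatase subunit, measured 0.428, 0.229 and 0.347 CPM in co-housed Tcra-/- mice, against 2.14, 1.52 and 1.99 CPM in wild type mice (log2 fold change -2.50 ± 0.28 (SE), adjusted p = 9.3e-06), with 0.512 CPM in separately housed Tcra-/- and 2.66 CPM in mice labelled Rag1-/-. Abhd4, a lipase, beside Dad1, fell by 0.81 and Ang, angiogenin, which shares exonic bases with Rnase4, by 1.01 on the log2 scale. Abhd4 averaged 75.9 CPM in separately housed Tcra-/- mice, against 61.9 CPM in wild type mice, and Ang 25.4 CPM, against 45.6 CPM. Pnp, the gene beside Pnp2 and of the same family, was called higher against wild type (0.46 ± 0.07 (SE), adjusted p = 2.0e-04, edgeR). It was also higher than in mice labelled Rag1-/-, by 0.55 on the log2 scale (adjusted p = 1.2e-04, edgeR). Reads that match both Pnp and Pnp2 may have been divided between them. The part of DNA carried along with the targeted allele was not tested.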

How the data were processed

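RNA of the terminal ileum of 12 mice, 1 library per mouse, was sequenced with a stranded mRNA kit. The submitters' processing notes name bcl2fastq, TopHat2 2.0.11, Bowtie2 2.2.2.0, featureCounts (Subread 1.4.5-p1), DESeq2 1.12.3 and the build mm9, without their order. Not given in the sources used here are the annotation, the strand setting and how multiple matches were counted. The deposited values are raw read counts per gene, 1 column per mouse, per the file headers. All 12 columns were mapped to mice by name and no row named no gene. The deposited table also holds the summed exon length of each gene, another per-gene value by the authors, which set no value here.

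Genes were kept by filterByExpr on the group, scaled by TMM and fitted in edgeR 4.0.16 (glmQLFit with robust estimation, 8 residual degrees of freedom, limma 3.58.1, R 4.3.3) with 1 term per group over all 12 libraries, so the groups shared 1 estimate of the spread. Each contrast had a two-sided quasi-likelihood F test with Benjamini-Hochberg adjustment over 15866 genes, called under 0.01, the rate in the design text. The design text names other comparisons, so co-housed Tcra-/- against wild type is not one of its own. The SE is the absolute log2 fold change over the square root of F. The fit was tested on simulated data. Alternatives were size factors of DESeq2 in edgeR, library size alone, no filter, a filter of 1 CPM in 3 libraries, the 6 libraries alone, DESeq2 1.42.0's Wald test and each mouse left out.

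Named genes were the 15 largest rises and falls (mean log2 CPM over 1, no overlap), up to 4 called members per list with the smallest adjusted p, 34 set genes, and the 5 largest in each direction against the other mutants. Some genes that met these rules are not reported here. Further genes, chosen after their values were seen, were Cd3d, Cd3g, Cd27, Derl3, Il23r, Socs3, Lcn2, Clcf1, Ifi44, Oas2, Isg15, Slc2a5, Slc15a1, Apoa1, H2-Aa, Defa24, Cr2 and those on chromosome 14. Ms4a1, Faim3 and Igj met the rule for the comparison with mice labelled Rag1-/-. The comparison, the members and the lists were chosen with earlier results of these data known. Promoters came from RefSeq (GRCm38.p6) by symbol, and gene coordinates from the deposited table (mm9). Intervals on count ratios are exact and cover counting error only. Replicates are separate mice whose cages and litters are not given.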

Additional observations from a re-analysis of the deposited data

Results flagged for a closer look

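In 6 of the genes named for their size, co-housed and separately housed Tcra-/- mice differed from the same wild type mice in opposite directions, both past the threshold, and the difference between the housing groups was itself past the threshold in edgeR's quasi-likelihood test. On the log2 scale, co-housed minus separately housed, it was 10.29 in Retnlb, 8.21 in B3galt5, 6.80 in Trim10 and 5.58 in Tat, which were higher in co-housed and lower in separately housed mice than in wild type. It was -6.43 in Slc28a1, a nucleoside transporter, and -5.56 in Rdh7, which were lower in co-housed and higher in separately housed mice than in wild type. Against wild type, Retnlb stood at 5.18 in co-housed and -5.11 in separately housed mice, and Slc28a1 at -4.08 in co-housed and 2.35 in separately housed mice.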

How the results depend on the processing

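The alternatives were followed in 248 tested genes, which met the naming rules or were added outside them. Of these, 174 kept their direction and their side of the threshold under every alternative run. The other 74 did not under at least 1, with 212 losses and 17 gains of a call over all alternatives. Against wild type the total number called was 3244 with library size alone, where 795 were higher and 2449 lower, and 2912 with size factors of DESeq2 in edgeR, 2910 with no filter, 2277 in the fit of 6 libraries and 3627 with DESeq2's Wald test. Leaving out each mouse gave 2117 to 2524 in all, 1063 to 1320 higher and 1047 to 1291 lower. Against mice labelled Rag1-/- DESeq2 called 849, 249 of them lower, and the fit of 6 libraries called 281, 251 higher and 30 lower, while leaving out each mouse gave 297 to 569 in all, 275 to 488 higher and 22 to 81 lower. Against separately housed Tcra-/- mice, leaving out each mouse gave 5002 to 5970. Separately housed mice against wild type gave 1281 to 1735 when each mouse was left out, 490 to 760 higher and 791 to 975 lower. The sign turned, with no call on either side, for Fasn with library size alone (-0.0236) and for 5 genes when a mouse was left out, over a range from -0.938 to 0.177 for Defa24, -1.03 to 0.0316 for Lyz1, -0.326 to 0.125 for Scd1, -0.162 to 0.112 for Cd74 and -0.352 to 0.0642 for Cr2. The cause was not tested. Counts of called list members moved by over 1.5 times under at least 1 alternative in 51 of 102 list counts, many of them counts of a few genes. No paired analysis was possible because the replicate numbers are mouse numbers that no 2 groups share. Genes with few reads, such as Il22 in wild type mice, are limited by depth.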
